A study of Mus musculus with 10 samples.

Results

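Left ventricular myocytes isolated from mice labelled CTCF_knockout were compared with myocytes from mice labelled control, gene by gene and transcript by transcript. The comparison used 7 of the 10 RNA-seq libraries of the series: 3 controls and 4 knockouts. The remaining 3 libraries came from mice with transverse aortic constriction (TAC), in which a band on the aorta raises the pressure the ventricle works against, and which the series' design text counts as diseased. Every library was labelled strain C57BL/6, tissue left ventricle and cell type isolated cardiac myocytes, with a mouse number of its own, so each was treated as 1 animal. The extraction protocol calls the cells adult. The labels used here name neither the Cre line, its promoter, the age, the sex nor the time after deletion, and the TAC mice carry no genotype statement. Values are FPKM (fragments normalised to the length of the transcript and the mapped fragments of the library), summed by gene and rescaled between libraries, and differences are on the log2(FPKM + 1) scale unless a fold is given, which understates the change of genes near or below 1 FPKM. A gene, or a share of a gene's transcripts, was called where the adjusted p of the limma fit was under 0.05, and "rose" and "fell" are used only of called items.

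CTCF reads a long DNA motif with its zinc fingers and, together with the ring-shaped cohesin complex, anchors loops of chromatin that bring enhancers and promoters together or keep them apart. Loss of such an anchor can alter how much RNA a gene makes, which of its start sites is used, and, because CTCF can slow RNA polymerase, which exons are kept. In cardiac myocytes, genes for contraction, calcium handling and fatty acid oxidation dominate the RNA, and many muscle proteins exist in fetal and adult forms made from the same gene through other starts or spliced exons. Levels by gene and shares of transcripts within a gene are therefore separate readouts of the same libraries.

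Ctcf itself (chr8:105636568-105682922, plus strand, mm10) stood at 8.48, 8.53 and 6.93 FPKM in controls 1 to 3 and at 2.91, 3.93, 2.64 and 4.25 FPKM in knockouts 1 to 4. All 4 knockout libraries were below all 3 controls, and the mean fell to 43.0% of the control mean (log2 difference -1.03 ± 0.15 SE, adjusted p = 0.000666). The TAC libraries held 7.11, 5.75 and 5.28 FPKM, and the knockouts were lower than these too (log2 difference -0.68, adjusted p = 0.0350). Most, but not all, of the loss lay in the full-length coding transcript Ctcf-201. It held 5.88, 4.92 and 5.27 FPKM in controls and 1.73, 2.17, 1.73 and 2.59 FPKM in knockouts. The noncoding transcript Ctcf-204, which starts at the same promoter, held 1.35, 1.01 and 0.512 FPKM in controls and 0.769, 0.886, 0.712 and 1.20 FPKM in knockouts, and there the groups overlapped. Which exons the knockout allele lacks is not given in the sources used here, and exon-level reads were not analysed here, so the remaining FPKM can come from intact or from truncated RNA.

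The files hold no read counts. Coverage per FPKM, the stand-in for depth, ran from 3.90 to 6.09 over the 10 libraries, and the rescaling factors were 0.947 to 0.966 in controls, 0.995 to 1.085 in knockouts and 0.952 to 1.038 in TAC libraries. The marker counts that follow stand beside the 9.38% of all tested genes that rose and the 10.2% that fell. Xist and Y-linked RNA marked control 2 and knockout 4 as male and the other 5 as female. Of the 15 cardiomyocyte markers, titin (Ttn) was set apart by the gene filters. The other 14 summed to 41365 to 49423 FPKM in controls and 35013 to 48804 FPKM in knockouts. Of the 14, all tested, 2 rose (Mybpc3, Actn2) and 5 fell (Ryr2, Pln, Myh6, Tnni3, Cox7a1). Fibroblast markers summed to 161 to 298 FPKM in controls and 265 to 408 FPKM in knockouts, and 5 of 12 rose (Col1a2, Col1a1, Col3a1, Mfap5, Pi16). Endothelial markers summed to 165 to 230.0 FPKM in controls and 172 to 268 FPKM in knockouts with 3 of 13 higher (Eng, Vwf, Emcn), and macrophage and leukocyte markers to 73.2 to 106 FPKM in controls and 85.2 to 144 FPKM in knockouts, with Adgre1 higher and Cd163 lower. Smooth muscle and pericyte markers summed to 466 to 654 FPKM in controls and 585 to 735 FPKM in knockouts, where Cspg4 rose and Acta2 fell, and erythroid markers to 295 to 1153 FPKM in controls and 125 to 621 FPKM in knockouts, where none of 5 was called. Liver transcripts summed to 17.4 to 31.1 FPKM in controls and 7.90 to 17.0 FPKM in knockouts, with Alb called lower among 4 tested. Of 24 that were above 0, 17 were higher in all controls than in all knockouts. Most of the 24 were under 1 FPKM in controls and not tested, and the share of all genes separated this way was not counted. Among these markers the call was lost for Myh6 and Emcn without control replicate 1, 2 or 3 or knockout replicate 1, 2 or 4, for Tnni3 and Cox7a1 without control replicate 2 or 3 or knockout replicate 1, 2 or 4, for Actn2 without control replicate 1 or 3 or knockout replicate 1, 2 or 3, for Eng without control replicate 2 or 3 or knockout replicate 2, for Vwf without control replicate 2 or 3 or knockout replicate 2 or 4, for Adgre1 without control replicate 1 or 2 or knockout replicate 1 or 4 and for Cd163 without control replicate 1 or 3 or knockout replicate 2 or 3. In a bulk library, fewer cells of a type and less RNA per cell cannot be told apart, and the part of these markers in the results below was not tested.

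Across 11339 genes with a mean of at least 1 FPKM, 2219 were called, 19.6% of those tested: 1064 rose (9.38%) and 1155 fell (10.2%). In 2130 of the called genes no knockout library overlapped a control library. This largely follows from the call and is no separate support, and the share over all tested genes was not counted. Most changes were moderate, with a median absolute log2 difference of 0.606 among called genes and of -0.02 signed over all tested genes. By the ratio of group means, 385 genes were at least 2-fold higher and 268 were at most 50% of control, while 77 were at least 4-fold higher and 39 at most 25% of control. The split of higher against lower calls depended on whether the libraries were rescaled. It was 47.9% higher as fitted and 50.5% higher with quantile normalization (1283 rose, 1260 fell). With no rescaling it was 73.2% higher (1657 rose, 608 fell), and the median of all genes moved to 0.0986. Calls were also uneven over the range of levels. Of genes at 1 to 2 FPKM, 10.6% rose and 7.15% fell, against 8.41% and 12.9% of those at 20 to 100 FPKM and 6.76% and 12.8% of those over 100 FPKM. Without control replicate 2, the male control, 757 genes were called lower, and in the female libraries alone 608 rose and 480 fell. With sex as a covariate in the fit, 1004 rose and 1047 fell.

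**Figure D1:**
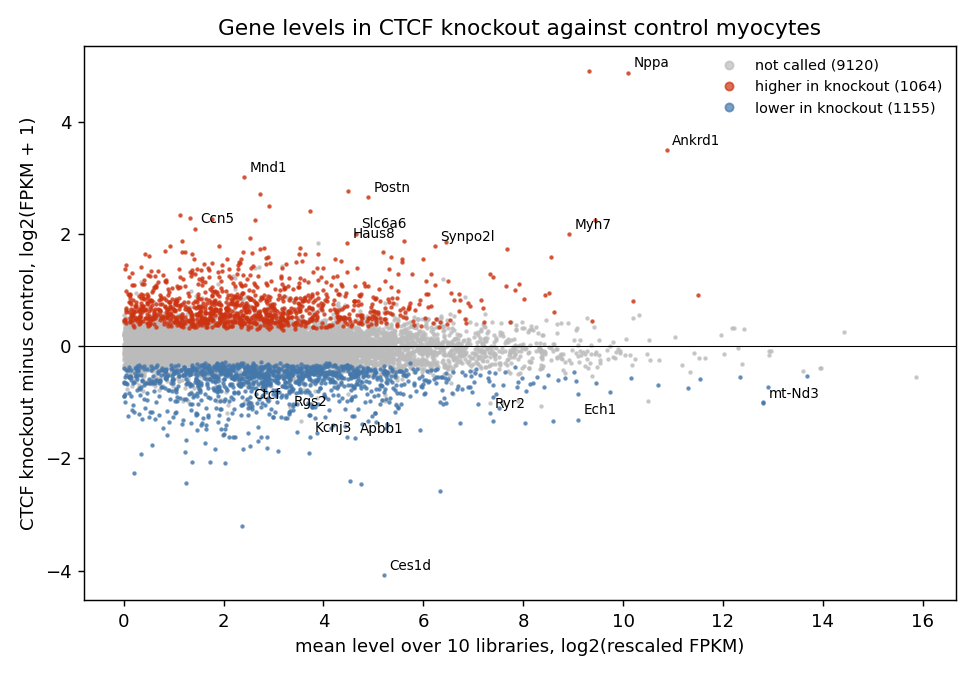
Every tested gene of the knockout comparison: the x axis is the mean rescaled FPKM over all 10 libraries as log2 and the y axis the log2 difference of knockout minus control. Points past the adjusted p of 0.05 are coloured; 1064 lie above 0 and 1155 below it, and most of the largest differences belong to genes of low to middling level.

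Below the natriuretic peptide gene Nppa and the muscle stress gene Ankrd1, which were near the head of the list, the steepest increases covered secreted proteins, a transporter and proliferation genes. Gdf15, a stress hormone of the TGF-beta family (chr8:70629393-70632456), held 0.350, 0.607 and 1.39 FPKM in controls and 6.10, 6.68, 5.88 and 11.5 FPKM in knockouts (log2 difference 2.26 ± 0.34, adjusted p = 0.000811). Knockout 4 stood highest, and the lowest knockout was still well above the highest control. Ccn5, a secreted matricellular protein of the CCN family (chr2:163820861-163833146), held 0.401, 0.336 and 0.176 FPKM in controls and 5.07, 4.17, 3.97 and 5.23 FPKM in knockouts (2.1 ± 0.13, adjusted p = 2.48e-06). Its TAC libraries lay between, at 2.98, 2.12 and 2.54 FPKM, below the knockouts (adjusted p = 0.0201). The taurine transporter Slc6a6 (chr6:91684067-91759063) rose from 8.53, 8.83 and 7.05 FPKM to 31.6, 46.7, 29.9 and 36.1 FPKM (2.01 ± 0.22, adjusted p = 0.000118). Its groups were far apart, and the TAC libraries held 18.9, 23.9 and 39.9 FPKM, all above the controls.

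Phlda3, a p53 target that restrains AKT signalling, held 1.44, 2.32 and 1.73 FPKM in controls and 8.80, 11.3, 11.7 and 7.68 FPKM in knockouts, and Haus8, a subunit of the augmin complex that nucleates microtubules, 6.85, 9.64 and 10.6 FPKM and 33.8, 35.6, 40.8 and 28.2 FPKM. Both rose (log2 differences 1.93 ± 0.17 and 1.84 ± 0.16) and both were higher in knockouts than after TAC (adjusted p = 0.00983 and 0.0200). The cell cycle genes Cdk1, the mitotic kinase, and Cks2, its small binding partner, were near the floor in controls, at 0.266, 0.358 and 0.366 FPKM and 0.122, 0.566 and 0.254 FPKM. They reached 2.46, 2.39, 3.41 and 10.1 FPKM and 2.80, 2.49, 3.20 and 6.26 FPKM in knockouts, with the male knockout 4 the highest for both. Mfap4, an elastic fibre protein, rose by 1.78 ± 0.26 and Tnfrsf12a, the receptor for the cytokine TWEAK, by 1.86 ± 0.36. Sprr1a, a small proline-rich protein induced in stressed cells, was listed at 0 in every control and at 1.02, 2.48, 2.06 and 3.02 FPKM in knockouts.

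Among the largest decreases were metabolic, ion channel and matrix genes and several poorly described transcripts. Fbp2, the muscle fructose bisphosphatase of gluconeogenesis (chr13:62836884-62858400), held 12.3, 14.6 and 12.2 FPKM in controls and 3.49, 3.40, 4.30 and 2.46 FPKM in knockouts (-1.68 ± 0.18, adjusted p = 0.000112). Kcnj3, the GIRK1 subunit of the acetylcholine-gated potassium channel (chr2:55435970-55598145), held 26.6, 22.7 and 26.6 FPKM and 8.86, 6.09, 8.06 and 7.42 FPKM (-1.62 ± 0.12, adjusted p = 1.49e-05). Abcc9, the sulfonylurea receptor subunit of the ATP-sensitive potassium channel, held 70.7, 69.2 and 53.2 FPKM and 26.9, 21.2, 21.5 and 26.3 FPKM (-1.38 ± 0.15). The groups of all 3 genes were separate, which the rule for naming the lowest genes required of Fbp2 and Kcnj3. Of the TAC libraries of Kcnj3 (8.47, 9.27 and 7.88 FPKM), 2 lay within the range of the knockouts and 1 just above it. Apbb1, an adaptor that binds the amyloid precursor protein, fell from 43.4, 40.4 and 43.9 FPKM to 14.3, 12.6, 13 and 12.2 FPKM (-1.64 ± 0.11, adjusted p = 7.63e-06). It was also lower in knockouts than after TAC (19.6, 21.7 and 26.4 FPKM, adjusted p = 0.00728). Ogn, the matrix proteoglycan mimecan, fell by 1.62 on this scale and the membrane protein gene Cmtm8 by 1.67. Tfpi, the inhibitor of the tissue factor pathway of clotting, stood at 29.8, 29.9 and 31.0 FPKM in controls and 11.1, 8.80, 11.1 and 10.9 FPKM in knockouts, with knockout 2 the lowest.

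The pseudogene Gm13339 held 179.8, 152 and 221 FPKM in controls and 40.8, 25, 20.4 and 37.3 FPKM in knockouts, and 3 further transcripts without a known product, Gm10800, Gm26870 and Gm10801, fell by 2.45, 2.40 and 1.83 on the log2 scale. In these 3, control 3 was the highest of the controls by a wide margin (43.7, 26.1 and 117 FPKM for Gm10800). Genes that share sequence with a copy elsewhere, as pseudogenes do, can trade reads in the authors' counting, so their levels are uncertain. Rpl34-ps1 was listed at 0 in all 4 knockouts, but control 2 also had only 0.107 FPKM, and its call was lost without control replicate 1 or 3. Tmem100 and Il15, at 8.93, 15.3 and 9.999 FPKM and 6.68, 8.47 and 4.46 FPKM in controls, fell to 0.579, 3.87, 4.86 and 2.55 FPKM and 1.85, 0.369, 0.453 and 3.27 FPKM. The call for Tmem100 was lost without control replicate 2 or 3 or knockout replicate 1 or 4, and that for Il15 without control replicate 2.

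**Figure D2:**
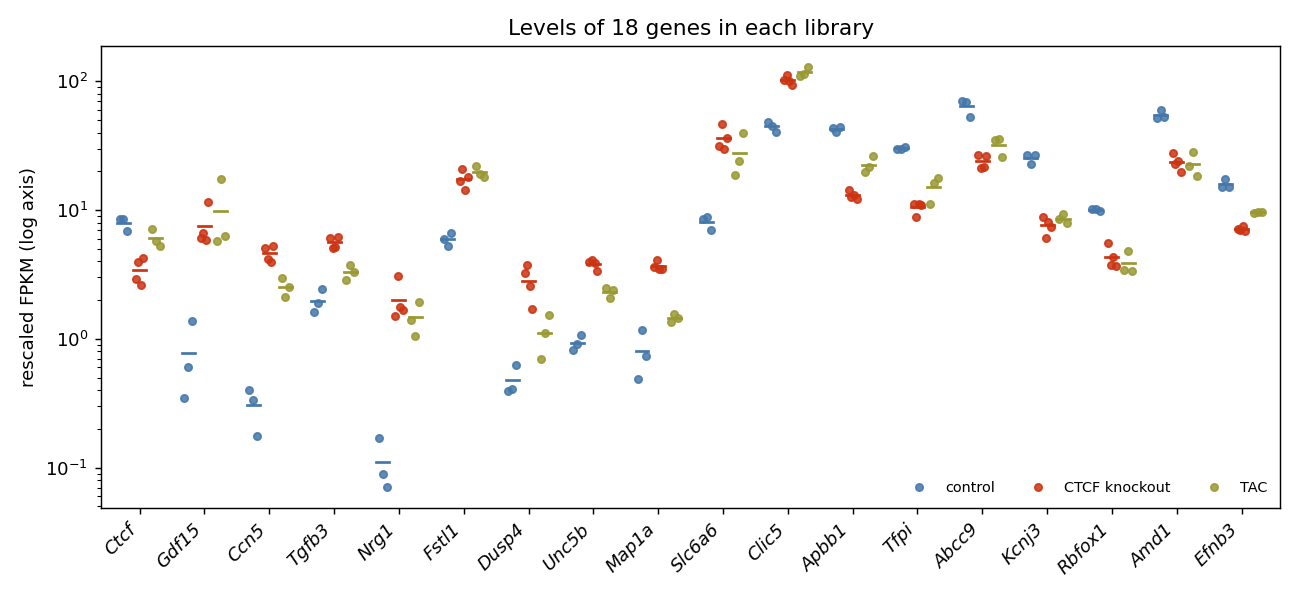
Levels of 18 genes in each library, in FPKM on a log axis, for control, knockout and TAC, with 1 point per library and a bar at the group mean. Ctcf, Kcnj3, Abcc9 and Tfpi lie lower in all 4 knockouts than in all 3 controls, while Gdf15, Ccn5, Nrg1, Unc5b and Map1a lie higher.

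Measured as FPKM gained or lost, the genes named for the largest changes include abundant mitochondrial and muscle RNAs. The mitochondrial complex I subunit mt-Nd3 held 8997, 10894 and 11694 FPKM in controls and 4698, 5513, 5001 and 5626 FPKM in knockouts, and mt-Nd2 8930.3, 9687 and 11947 FPKM and 5193, 7257, 5513 and 6764 FPKM. Both fell (adjusted p = 0.00139 and 0.0204), and the call for mt-Nd2 was lost without control replicate 2 or 3 or knockout replicate 1 or 3. The other 6 of the 8 mitochondrially encoded genes tested were not called. The nuclear pseudogene Gm28438, a copy of mitochondrial sequence, fell alongside them (log2 difference -1.001). A second copy, Gm10925 (-0.52), lost its call in 14 of 17 alternatives, among them the fits without control replicate 2 or 3 or knockout replicate 1, 2, 3 or 4. Reads of such copies and of the mitochondrial genes cannot be assigned with certainty. Among muscle genes, the thick filament regulator Mybpc3 rose from 707, 936 and 749 FPKM to 1425, 1381, 1518 and 1244 FPKM. Ech1, an isomerase of fatty acid oxidation, fell from 798, 963 and 938 FPKM to 439.5, 318, 407 and 301 FPKM, and the groups of both genes were separate. By gene type, 2049 of 10312 protein-coding genes were called (19.9%), 41 of 178 antisense genes (23.0%), 27 of 126 lincRNAs (21.4%) and 36 of 358 processed pseudogenes (10.1%). Of 35 unprocessed pseudogenes, 15 fell and 2 rose. Gm13054, an antisense gene at chr4:148001091-148004014, changed as Nppa did (4.91 ± 0.27); the kit marks strand, but whether the authors' counting used it is not given in the sources used here.

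The counts of the gene lists below are to be read against the 9.38% of all genes that rose and the 10.2% that fell, with an all-gene median of -0.02. Among secreted growth factors and peptides, 14 of 34 tested genes rose and 6 fell, with a median log2 difference of 0.27. Nrg1, the ligand through which endothelial cells signal to myocytes, held 0.170, 0.0899 and 0.0708 FPKM in controls and 1.51, 3.06, 1.77 and 1.66 FPKM in knockouts (1.41 ± 0.17, adjusted p = 0.000267), with knockout 2 the highest. The BMP antagonist Fstl1 rose from 5.95, 5.30 and 6.68 FPKM to 16.9, 20.7, 14.2 and 18 FPKM (1.40 ± 0.13, adjusted p = 4.37e-05). Tgfb3, a TGF-beta ligand, held 1.61, 1.89 and 2.44 FPKM and 6.11, 5.12, 5.21 and 6.18 FPKM (1.17 ± 0.12), above its TAC values of 2.88, 3.71 and 3.30 FPKM (adjusted p = 0.0208). Its relative Tgfb2 rose by 1.26 ± 0.17 and the vasoconstrictor endothelin Edn1 by 1.37 ± 0.27, while Fgf2 fell from 6.23, 2.98 and 2.55 FPKM to 1.39, 1.66, 1.36 and 1.16 FPKM. Among the receptors, 2 of 33 tested receptor genes rose and 5 fell, with a median log2 difference of 0.03. Erbb4, the myocyte receptor for Nrg1, fell from 4.29, 3.25 and 3.41 FPKM to 2.02, 2.16, 2.36 and 2.58 FPKM (-0.50 ± 0.11, adjusted p = 0.00803). The TGF-beta co-receptor Tgfbr3 (-0.90 ± 0.17), the LIF receptor Lifr (-0.83 ± 0.14), the endothelin receptor Ednra (-0.66) and the angiotensin receptor Agtr1a (-0.38) also fell. Npr3, the clearance receptor for natriuretic peptides, rose by 0.92 ± 0.21, and Osmr by 0.49. The call was lost for Agtr1a without control replicate 2 and for Osmr without control replicate 2 or 3. Some counts moved by more than 1.5 times when a library was left out. Secreted factors that rose became 9 without control replicate 2. Secreted factors that fell became 3 without control replicate 3. Without rescaling, receptors that rose numbered 5 in place of 2.

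In the Wnt pathway, 4 of 24 tested genes rose and 0 fell, with a median log2 difference of 0.11. The 4 were the secreted antagonists Frzb (0.383, 0.308 and 0.952 FPKM in controls, 2.90, 1.66, 2.71 and 2.33 FPKM in knockouts) and Dkk3 (0.96 ± 0.16) and the receptors Fzd2 (0.77) and Fzd1 (0.44). In the Hippo pathway, which controls organ growth through the coactivators YAP and TAZ, 4 of 19 tested genes rose and 0 fell, with a median log2 difference of 0.09. Wwtr1, which encodes TAZ, held 9.48, 8.25 and 10.01 FPKM and 13.9, 14.6, 13.7 and 13.4 FPKM (0.55 ± 0.11, adjusted p = 0.00429). Yap1 (0.37), the LIM protein gene Ajuba (0.46) and the YAP target Ccn2 (1.16) made up the rest. These calls were lost for Yap1 without control replicate 1 or 2 or knockout replicate 2, 3 or 4, for Ajuba without control replicate 3 and for Ccn2 without control replicate 1 or 2 or knockout replicate 1, 2 or 4. None of the 16 Notch pathway genes was called by limma, and their median was 0.13. A count here moved by more than 1.5 times without 1 library. Hippo genes that rose became 2 without control replicate 1 or 2 or knockout replicate 2 or 4. When libraries were not rescaled, Wnt genes that rose numbered 7 in place of 4.

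Of 18 MAP kinase phosphatases and Sprouty proteins, 6 rose and 1 fell (median 0.23). Dusp4, a nuclear phosphatase of the MAP kinases, held 0.396, 0.407 and 0.623 FPKM in controls and 3.23, 3.78, 2.56 and 1.71 FPKM in knockouts (1.35 ± 0.19, adjusted p = 0.000606). TAC gave 0.691, 1.12 and 1.53 FPKM, lower than the knockouts (adjusted p = 0.0379). Dusp3 (0.62 ± 0.10), Dusp6, Dusp27, Spry1 and Spry4 (0.76 ± 0.13) also rose, and Dusp18 fell. Calls in this list were lost for Dusp6 without control replicate 1 or 2 or knockout replicate 1, 2 or 4, for Spry1 without control replicate 1 or 2 or knockout replicate 1 or 4 and for Dusp18 without control replicate 1. Among regulators of G protein signalling, 6 of 21 rose and 2 fell (median 0.11). Gnao1, the alpha subunit of Go, rose by 1.5 ± 0.15 and Rgs3 by 0.85 ± 0.11, while Rgs2, which restrains signalling through Gq, fell from 15.5, 15.2 and 22.5 FPKM to 8.35, 8.13, 5.96 and 6.74 FPKM. Semaphorins, ephrins and guidance receptors moved both ways, 4 higher and 4 lower of 31 (median 0.15). The netrin receptor Unc5b rose from 0.819, 0.909 and 1.08 FPKM to 3.97, 4.06, 3.86 and 3.39 FPKM (1.32 ± 0.10, adjusted p = 1.49e-05). The ligand Efnb3 fell from 15, 17.6 and 15.2 FPKM to 7.17, 6.97, 7.47 and 6.88 FPKM, with the netrin receptor Neo1 (-0.80 ± 0.10) and the ephrin receptor Epha4 (-1.20 ± 0.20). Unc5b and Efnb3 both differed from TAC in the same direction (adjusted p = 0.0200 and 0.0454). On FPKM as deposited, guidance genes that rose numbered 7 in place of 4.

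Of 28 nuclear receptors, 7 fell and 1 rose (median -0.12). The common partner Rxra fell from 11.8, 11.9 and 11.4 FPKM to 7.59, 6.44, 6.60 and 7.58 FPKM (-0.66 ± 0.10, adjusted p = 0.000960) and the thyroid hormone receptor Thrb from 5.67, 5.17 and 4.68 FPKM to 2.82, 3.12, 3.13 and 3.01 FPKM (-0.62 ± 0.10). The groups did not overlap for either. Ppara, the driver of fatty acid oxidation genes, fell by 0.63, with Rarb, Rxrg, Nr1h3 and Thra also lower and the retinoic acid receptor Rara higher. Nuclear receptor calls were lost for Ppara without control replicate 1 or 2 or knockout replicate 1, for Rarb without control replicate 2, for Rxrg without control replicate 2 or 3, for Nr1h3 without control replicate 1 or 2 or knockout replicate 3 or 4, for Thra without control replicate 2 or 3 or knockout replicate 1, 2, 3 or 4 and for Rara without control replicate 1 or 3 or knockout replicate 2 or 3. Of 24 genes of the KLF list, 4 fell and none rose: Klf9 (-0.74 ± 0.15), Klf15 (-0.95 ± 0.20), Mef2a and Klf12. Of these the call was lost for Mef2a without control replicate 3 or knockout replicate 2 and for Klf12 without control replicate 1 or 2 or knockout replicate 2 or 3. Homeobox and T-box genes moved both ways (4 higher, 2 lower of 20, median -0.06). Irx3, a factor of ventricular conduction, rose from 3.44, 4.06 and 4.26 FPKM to 7.85, 7.64, 9.49 and 6.86 FPKM and was above TAC (3.94, 5.33 and 5.0 FPKM, adjusted p = 0.0227). Tbx20 rose by 0.63 ± 0.14, while Tbx5 fell by 0.52 and the small homeodomain protein gene Hopx from 99.0, 127 and 149 FPKM to 65.0, 62.1, 71.9 and 50.1 FPKM. Leaving out 1 library moved some counts by more than 1.5 times. Nuclear receptors that fell became 2 without control replicate 2. Genes of the KLF list that fell became 2 without knockout replicate 2. With no rescaling of the libraries, nuclear receptors that fell numbered 3 in place of 7 and genes of the KLF list that fell numbered 2 in place of 4.

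Of 20 chromatin loop and insulator genes, 2 rose (Stag1, Satb1) and Ctcf fell, with a list median of -0.08. Stag1, a cohesin subunit, held 7.78, 6.06 and 8.83 FPKM in controls and 11.2, 12.9, 10.8 and 10.2 FPKM in knockouts (0.53 ± 0.13, adjusted p = 0.0156). The TAC libraries, at 5.73, 7.37 and 6.54 FPKM, lay below the knockouts (adjusted p = 0.0199), and the call against control was lost without control replicate 2. The call for Satb1 was lost without control replicate 1 or 2 or knockout replicate 3. The cohesin ring genes Smc1a (-0.21 ± 0.10, adjusted p = 0.168), Smc3 (-0.05 ± 0.11, 0.781) and Rad21 (-0.42 ± 0.16, 0.0854) did not pass the test. For Rad21 the 4 knockouts lay below the 3 controls (7.79, 10.5, 8.86 and 11.6 against 15.5, 11.9 and 12.4 FPKM). Rad21 was named after its values were seen, and how many uncalled genes separate this way was not counted. The loader Nipbl (-0.30) and the release factor Wapl (0.16) overlapped between the groups.

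Of 55 tested splicing regulators, 7 fell (Rbfox1, Mbnl2, Khdrbs3, Srsf3, Tra2b, Qk, Srsf7) and 1 rose (Rbfox2), with a median of -0.17. That is 14.5% called, beside 19.6% of all tested genes. Rbfox1, the muscle and neuron splicing factor that binds beside alternative exons, fell from 10.2, 10.2 and 9.75 FPKM to 5.59, 3.72, 4.31 and 3.70 FPKM (-1.06 ± 0.14, adjusted p = 0.000378). Its relative Rbfox2 held 14.2, 12.9 and 15.6 FPKM and 18.1, 18.3, 18.4 and 18.2 FPKM (0.34 ± 0.09, adjusted p = 0.0250), a smaller change whose call was lost without control replicate 1 or 2 or knockout replicate 1, 2 or 3. Calls were also lost for Qk without control replicate 3 or knockout replicate 1 or 3, for Srsf7 without control replicate 2 or 3 or knockout replicate 1, 2, 3 or 4 and for Tra2b without control replicate 2 or 3 or knockout replicate 2. Mbnl2, of the muscleblind family that sets adult splice forms, fell from 59.3, 49.5 and 54.0 FPKM to 36.6, 39.6, 35.4 and 35.1 FPKM (-0.55 ± 0.11). Mbnl1 (0.03 ± 0.11, adjusted p = 0.879) and Rbm20, the regulator of titin splicing (0.12 ± 0.12, 0.543), did not pass the test, and their groups overlapped. Of 26 genes of mRNA decay and RNA methylation 1 fell, Ythdf3 (-0.53 ± 0.14, adjusted p = 0.0221), a reader of methylated adenosine whose call was lost without control replicate 1 or 2 or knockout replicate 3. Some counts moved by more than 1.5 times when a library was left out. Splicing regulators that fell became 4 without control replicate 3. Without rescaling, splicing regulators that fell numbered 3 in place of 7.

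In polyamine, creatine and arginine metabolism, 6 of 27 genes rose and 4 fell (median 0.02). Aldh18a1, the entry enzyme of proline and ornithine synthesis, rose from 1.10, 1.60 and 1.28 FPKM to 4.91, 4.32, 4.45 and 4.12 FPKM (1.23 ± 0.11, adjusted p = 3.56e-05). Amd1, which makes the decarboxylated donor for spermidine and spermine, fell from 52.0, 60.1 and 52.5 FPKM to 27.8, 22.7, 24.0 and 19.7 FPKM (-1.19 ± 0.15, adjusted p = 0.000313). Azin1, an inhibitor of the antizyme that restrains polyamine synthesis, rose by 1.02 ± 0.15 and Ddah2, which degrades methylated arginine, by 1.20 ± 0.16. Of 18 amino acid transporters, 4 rose and 3 fell (median 0.08). Slc43a2, which carries branched-chain amino acids, went from 1.38, 3.02 and 1.60 FPKM to 5.46, 6.14, 6.67 and 5.13 FPKM, and the glutamine carriers moved apart, with Slc38a1 at 0.89 ± 0.12 and Slc38a3 at -0.92 ± 0.15. Of 21 tRNA synthetase genes, Aars rose (0.44 ± 0.11) and none fell (median 0.02). In one-carbon, serine and nucleotide synthesis, 4 of 29 fell and 1 rose (median -0.11). The mitochondrial folate enzyme Aldh1l2 fell from 2.50, 1.62 and 2.96 FPKM to 0.578, 0.513, 0.541 and 0.816 FPKM, and Rrm2, the ribonucleotide reductase subunit of dividing cells, rose from 0.308, 0.698 and 0.429 FPKM to 2.21, 2.30, 2.98 and 10.5 FPKM, with knockout 4 apart from the other 3. In cholesterol synthesis 5 of 22 fell and 1 rose (median -0.04), among them the sterol sensor partner Insig1 (-0.75 ± 0.14). In phospholipid and triglyceride synthesis 5 of 30 fell and 1 rose (median -0.08). Dgat2, the last step of triglyceride synthesis, fell from 147, 144 and 98.8 FPKM to 77.0, 61.2, 69.4 and 48.8 FPKM, and the fatty acid elongase Elovl1 rose by 0.63 ± 0.12. A count here moved by more than 1.5 times without 1 library. Cholesterol genes that fell became 1 without control replicate 2, 2 without knockout replicate 2 and 3 without control replicate 3 or knockout replicate 4. Phospholipid and triglyceride genes that fell became 2 without control replicate 2 or knockout replicate 3 or 4 and 3 without knockout replicate 1 or 2. When libraries were not rescaled, one-carbon genes that fell numbered 1 in place of 4, cholesterol genes that fell numbered 1 in place of 5 and phospholipid and triglyceride genes that fell numbered 2 in place of 5.

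Lysosome and autophagy genes moved both ways (7 rose and 7 fell of 37, median 0.12). The proteases Ctsk (1.08 ± 0.12) and Ctsz (0.92 ± 0.12) and the autophagosome protein gene Wipi1 (0.86 ± 0.12) rose. Gaa, the lysosomal glucosidase that degrades glycogen, fell from 42.6, 42.6 and 39.9 FPKM to 25.2, 23.2, 26.0 and 28.3 FPKM (-0.68 ± 0.12, adjusted p = 0.00250). Its TAC libraries stayed at 38.5, 51.1 and 39.0 FPKM, above the knockouts (adjusted p = 0.0123). In complement and coagulation, 5 of 27 rose and 3 fell (median 0.21). Besides Tfpi, its target tissue factor F3 fell from 9.96, 6.56 and 8.21 FPKM to 3.93, 4.56, 4.24 and 3.06 FPKM, while the serpin Serpinf1 (1.64 ± 0.28) and the complement gene C4b (0.84 ± 0.19) rose. Of 17 S100 proteins and annexins, 7 rose and 2 fell (median 0.31). The membrane-binding annexins Anxa7 (0.81 ± 0.15) and Anxa2 (0.67 ± 0.14) were higher, and the myocyte calcium sensor S100a1 went from 409, 538 and 501 FPKM to 362, 294, 336 and 301 FPKM. The call for S100a1 was lost without control replicate 2 or 3 or knockout replicate 2 or 4, and TAC stood higher (503, 605 and 743 FPKM, adjusted p = 0.0135). Among genes of caveolae, T-tubules and membrane repair, 4 of 25 rose and 3 fell (median 0.20). Ehd4, a membrane trafficking ATPase, rose from 87.3, 94.2 and 74.3 FPKM to 141, 173, 157 and 139 FPKM, Cavin3 rose by 0.63 ± 0.10, and the lipid phosphatase Mtm1 fell by 0.58. Of 30 peroxisome genes 5 fell and none rose (median -0.07), including the lipid transporter Abcd3 (-0.57 ± 0.11). Single libraries moved counts by more than 1.5 times. Lysosome genes that fell became 4 without control replicate 1 or 2 or knockout replicate 2 or 4. Complement and coagulation genes that rose became 2 without control replicate 2 or knockout replicate 2 and 8 without knockout replicate 3. S100 and annexin genes that rose became 3 without control replicate 2 and 4 without control replicate 1. Caveolae and T-tubule genes that rose became 2 without control replicate 1 or knockout replicate 2. Peroxisome genes that fell became 3 without control replicate 2 or 3. On FPKM as deposited, lysosome genes that fell numbered 3 in place of 7, complement and coagulation genes that rose numbered 8 in place of 5, caveolae and T-tubule genes that rose numbered 9 in place of 4 and peroxisome genes that fell numbered 3 in place of 5.

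The list with the largest share of higher members was that of cytoskeletal and microtubule genes, where 18 of 35 rose and 1 fell, with a median log2 difference of 0.51. Map1a, a protein that stabilises microtubules, held 0.492, 1.17 and 0.741 FPKM in controls and 3.62, 4.07, 3.49 and 3.46 FPKM in knockouts (1.39 ± 0.13, adjusted p = 3.99e-05). Its TAC libraries, at 1.35, 1.55 and 1.46 FPKM, were lower than the knockouts (adjusted p = 0.00453). The tubulins Tuba1c (12.1, 21.7 and 21.8 and 33.6, 41.8, 42.4 and 38.3 FPKM), Tubb5 (0.81 ± 0.15), Tubb2a (0.94 ± 0.18) and Tubb2b (0.58 ± 0.12) rose as well. For Tubb2a and Tubb2b TAC stood above the knockouts (adjusted p = 0.0217 and 0.00921), and reads of such near-identical tubulin genes can be traded between them. The keratin Krt18 rose from 0.503, 1.26 and 0.737 FPKM to 3.78, 3.53, 3.71 and 2.76 FPKM, and Tuba1a, Map1b, Mapre2, Vash1, Ttl, Ttll7, Stmn1, Flna, Synm, Vim, Tubb6 and Lmna were also called higher. Among them the call was lost for Synm without control replicate 2, for Vim without control replicate 1 or 2 or knockout replicate 1, 2 or 4, for Tubb6 without control replicate 1 or 2 or knockout replicate 2, 3 or 4 and for Lmna without control replicate 1 or 3 or knockout replicate 1, 2 or 3. Ttll1, an enzyme that adds glutamate chains to tubulin, was the 1 member that fell, from 13.5, 12.3 and 16.6 FPKM to 5.08, 5.59, 5.74 and 4.78 FPKM (-1.26 ± 0.13, adjusted p = 8.29e-05). Among fetal and skeletal muscle contractile genes, 3 of 16 rose and 1 fell (median 0.18). Myom3, a sarcomeric M-band protein, rose from 0.815, 0.593 and 0.549 FPKM to 2.12, 2.44, 2.56 and 2.55 FPKM, above TAC (0.837, 1.29 and 1.43 FPKM, adjusted p = 0.0200). With no rescaling of the libraries, contractile genes that rose numbered 5 in place of 3.

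**Figure D3:**
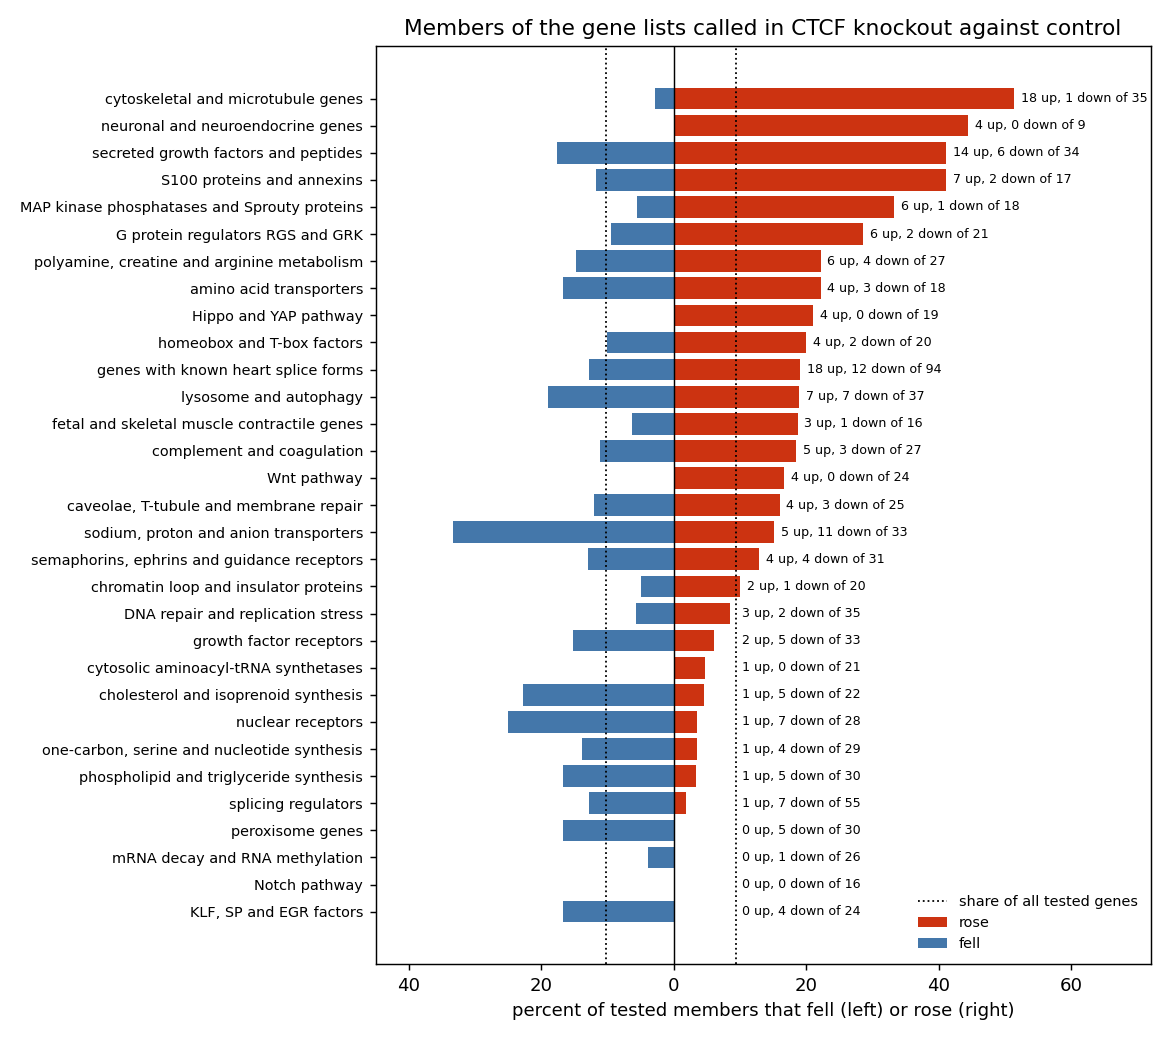
Share of each gene list that was called, for lists with at least 9 tested members other than those of cell type markers and 1 list not reported here, in percent: genes that rose to the right, genes that fell to the left. Dotted lines mark the shares of all tested genes, 9.38% higher and 10.2% lower, and the bar of the cytoskeletal list reaches farthest to the right.

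Of 9 tested neuronal and neuroendocrine genes, 4 rose and none fell (median 0.90): Uchl1, Dpysl3, Ncam1 and Syt12, whose call was lost without control replicate 2 or 3 or knockout replicate 1 or 2. The adhesion molecule Ncam1 held 1.10, 0.948 and 1.37 FPKM in controls and 4.34, 5.39, 4.59 and 5.70 FPKM in knockouts (1.49 ± 0.20, adjusted p = 0.000379). Of the meiosis and germ line genes 2 passed the level filter and Mnd1 rose. Of 35 DNA repair genes, 3 rose and 2 fell (median -0.07). Xpc, the damage sensor of nucleotide excision repair, rose from 3.25, 3.45 and 3.43 FPKM to 5.62, 5.93, 6.11 and 5.56 FPKM (0.64 ± 0.09, adjusted p = 0.000784) and was higher than after TAC (adjusted p = 0.0198). The recombination gene Xrcc2 rose by 0.70 ± 0.14 and the DNA ligase Lig3 by 0.41 ± 0.10. Transporters of sodium, protons and anions had 11 of 33 members lower and 5 higher, with a median of -0.18. The chloride exchanger Clcn3 (-0.64 ± 0.09) and the monocarboxylate carrier Slc16a7 (5.47, 2.89 and 3.48 FPKM in controls, 0.899, 0.691, 0.715 and 1.32 FPKM in knockouts) fell. Clic5, an intracellular chloride channel protein, rose from 48.4, 45.3 and 40.3 FPKM to 103, 111, 100.5 and 93.1 FPKM (1.17 ± 0.11, adjusted p = 5.83e-05), and the pump regulator Fxyd6 by 1.48 ± 0.16. Of 94 genes with known heart splice forms, 18 rose and 12 fell by level (median 0.07). Some counts moved by more than 1.5 times when a library was left out. Ion transporters that fell became 7 without control replicate 1 or 2. Without rescaling, ion transporters that fell numbered 7 in place of 11.

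Against TAC directly, 361 of 11339 genes differed from the knockouts (3.18%). TAC values are given beside those of the knockouts for some of the named genes, and both sets share the same 3 controls.

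Within genes, the share of each transcript in its gene's FPKM was compared. The same was done for transcripts grouped by start site, by 3′ end and by whether they include an internal exon. Starts and ends within 100 nt were joined, and groups by 3′ end are called last exons here. Of 12061 tested transcripts, 426 were called (3.53%), 192 with a larger share in knockouts and 234 with a smaller one, in 300 of 4067 genes. The median change among them was 14.2 percentage points, 95 changed by at least 20 points, and in 82 of the 300 genes the level was called as well. For start sites 294 of 7658 were called (3.84%), in 192 of 3047 genes. For last exons 470 of 9137 were called (5.14%), in 311 of 3449 genes. The groups did not overlap in 469 of the 470 last exons, which largely follows from the call. For single internal exons 76 of 2532 were called (3%), in 64 of 1633 genes. These counts depend on single libraries. The 426 transcripts became 167 to 406 when a library was left out, with the lowest values without control replicate 3 (167), knockout replicate 3 (180), knockout replicate 2 (196) and control replicate 1 (201), then knockout replicate 1 (248). The last exons became 197 without control replicate 1, 215 without control replicate 3, 224 without knockout replicate 3, 268 without knockout replicate 2 and 282 without knockout replicate 1. Start sites became 116, 101, 163, 120 and 110 without control replicates 1 and 3 and knockout replicates 1, 2 and 3, and internal exons became 30, 38, 48, 35 and 33 without the same libraries. Between knockouts and TAC, 2 of 12061 transcript shares differed (0.0166%).

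The pair that differed from TAC was Ezh1-202 and Ezh1-203, whose sequences differ by only 14 nt, so the split of reads between them is uncertain. Of the 426 called transcripts, 10 differ from the nearest tested transcript of their gene by at most 50 nt and 20 by at most 100 nt.

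In Synpo2l and Fhl1 the share of another start site rose, and in Esrrg that of a transcript from another start. Sequences before these starts are shown because different starts place different promoter letters in front of the same gene. Each is 150 bases before a start, 5′ to 3′ on the gene's strand, from the RefSeq promoter table (mm10/GRCm38), with searched motifs in capitals.
Synpo2l upstream start, chr14:20668355-20668504, minus strand: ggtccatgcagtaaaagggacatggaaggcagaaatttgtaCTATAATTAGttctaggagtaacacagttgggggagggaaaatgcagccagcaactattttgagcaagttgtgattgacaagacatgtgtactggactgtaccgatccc
Synpo2l downstream start, chr14:20664575-20664724, minus strand: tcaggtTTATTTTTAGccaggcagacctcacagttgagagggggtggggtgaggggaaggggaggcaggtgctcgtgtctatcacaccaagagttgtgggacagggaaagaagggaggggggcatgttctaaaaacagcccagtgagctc
Fhl1 internal start, chrX:56779533-56779682, plus strand: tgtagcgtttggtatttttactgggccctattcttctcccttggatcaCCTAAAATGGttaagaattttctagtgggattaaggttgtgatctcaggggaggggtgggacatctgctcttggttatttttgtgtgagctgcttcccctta
Esrrg upstream start, chr1:187608856-187609005, plus strand: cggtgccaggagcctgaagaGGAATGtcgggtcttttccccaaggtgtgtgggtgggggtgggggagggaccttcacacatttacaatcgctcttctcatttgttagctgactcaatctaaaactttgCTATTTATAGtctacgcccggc
Esrrg downstream start, chr1:187997677-187997826, plus strand: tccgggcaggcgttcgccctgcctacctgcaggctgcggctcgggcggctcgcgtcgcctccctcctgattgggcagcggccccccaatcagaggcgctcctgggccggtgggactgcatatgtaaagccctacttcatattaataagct
Both Synpo2l sequences hold a match to the MEF2 site, as do 1.02% of the 32851 promoters of the table in the same 150 bases. The Fhl1 sequence holds a CArG box, the letters bound by serum response factor (0.916% of promoters). The upstream Esrrg sequence holds the M-CAT motif (CATTCC, here on the other strand, 7.59%) and a MEF2 site that overlaps a TATA motif (TATAAA, on the other strand, 7.57%). In the downstream Esrrg sequence none of the 6 searched motifs was found. Motifs were searched on both strands, and a match is a description of the letters only. The table's start lies 40 nt from that of the files for Fhl1 and 23 nt for the upstream Esrrg start.

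Synpo2l encodes an actin-binding protein of the Z-disc. The downstream start, used by transcript Synpo2l-203, supplied 10.5, 11.6 and 27.6% of the gene's FPKM in controls and 50.4, 57.0, 54.8 and 53.7% in knockouts. The gain was 37.5 ± 4.27 percentage points (adjusted p = 0.00204), and every knockout was above every control, although control 3 stood apart from the other controls. In FPKM, Synpo2l-203 went from 1.92, 2.35 and 7.27 to 29.8, 50.2, 47.1 and 41.3. The transcripts of the upstream start gained less in FPKM, Synpo2l-201 from 11.2, 12.0 and 12.5 to 16.7, 26.2, 23.7 and 24.0 FPKM and Synpo2l-202 from 5.22, 6.05 and 6.65 to 12.5, 11.6, 15.2 and 11.5 FPKM. TAC took the downstream share to 61.7, 72.9 and 75.4%, and the difference between knockouts and TAC missed the threshold (adjusted p = 0.465). The whole gene rose by 1.79 ± 0.20, from 18.3, 20.3 and 26.4 FPKM to 59.0, 88.0, 86.0 and 76.8 FPKM.

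Fhl1, a LIM-domain protein of the sarcomere, lies on chrX. The share of its first start fell from 64.4, 81.2 and 71.2% in controls to 38.2, 31.6, 33.3 and 46.7% in knockouts (-34.9 ± 4.10 percentage points, adjusted p = 0.00239). The internal start of Fhl1-204, shown above, took 23.1, 11.5 and 20.8% of the FPKM in controls and 56.3, 59.1, 54.7 and 44.4% in knockouts (35.2 ± 3.84 percentage points, adjusted p = 0.00162). The level of Fhl1-201 was 20.9, 24.2 and 17.6 FPKM in controls and 18.1, 24.8, 19.7 and 21.1 FPKM in knockouts, and the groups overlapped. Fhl1-204 went from 6.57, 3.02 and 5.10 FPKM to 26.4, 45.6, 31.8 and 18.4 FPKM, with the male knockout 4 lowest of the knockouts. TAC libraries held 112, 120.5 and 228 FPKM of Fhl1-204, more than any knockout, with shares of the internal start of 71.7, 77.6 and 81.6% (adjusted p = 0.157 for the share against knockouts).

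Esrrg encodes an orphan nuclear receptor of mitochondrial gene control. Its level was not called (-0.13 ± 0.11, adjusted p = 0.469), but the share of Esrrg-203, from the upstream start, rose from 29.6, 32.8 and 25.1% to 72.1, 66.3, 58.4 and 60.3% (35.1 ± 3.50 percentage points, adjusted p = 0.00138). In FPKM, Esrrg-203 went from 3.66, 3.22 and 2.67 to 6.30, 6.79, 5.71 and 6.55 while Esrrg-201, from the downstream start, went from 5.73, 4.99 and 6.28 to 1.93, 2.78, 3.16 and 3.10. The groups did not overlap for either transcript, and the TAC share of Esrrg-203 was 62.5, 62.1 and 60.5%. Last exon 3 of Esrrg was also among the largest called changes of last exons, so the change cannot be placed at the start alone.

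Fam198b, which encodes a Golgi protein, started from its first promoter for 0.0121, 36.1 and 0.00907% of its FPKM in controls and 75.8, 71.6, 87.4 and 84.8% in knockouts (67.9 ± 8.09 percentage points, adjusted p = 0.00246). Control 2 stood between the other controls and the knockouts. Its transcript Fam198b-202 went from 0.000204, 0.881 and 0.000284 FPKM to 6.38, 7.51, 9.95 and 10.7 FPKM, whereas Fam198b-201, from promoter 3, held 1.56, 1.43 and 2.76 FPKM and 2.67, 3.10, 1.21 and 1.76 FPKM, so the increase of the gene came from the first start. In Ift81, a gene of intraflagellar transport, the share of the short transcript Ift81-203 fell from 68.2, 68.3 and 69.2% to 27.3, 20.1, 24.4 and 28.2% (-43.6 ± 2.97 percentage points, adjusted p = 0.000147). Ift81-203 went from 14.9, 13.9 and 19.13 FPKM to 3.03, 1.73, 2.90 and 2.94 FPKM, while the full-length Ift81-201 held 6.43, 5.95 and 7.79 FPKM and 7.44, 6.44, 7.54 and 6.26 FPKM with overlapping groups. Ift81-203 is annotated as a retained intron, and it carried the fall of the gene's level (-1.08 ± 0.15). In Lnx1, a ubiquitin ligase gene, the share of promoter 3 rose from 34.0, 40.5 and 47.5% to 78.5, 73.7, 89.0 and 72.6% (37.8 ± 4.61 percentage points). The share of Rreb1-201, a transcript of a zinc finger repressor, fell from 25.6, 52.0 and 48.4% to 0.604, 0.0550, 0.112 and 10.9%, with knockout 4 above the other 3 knockouts.

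**Figure D4:**
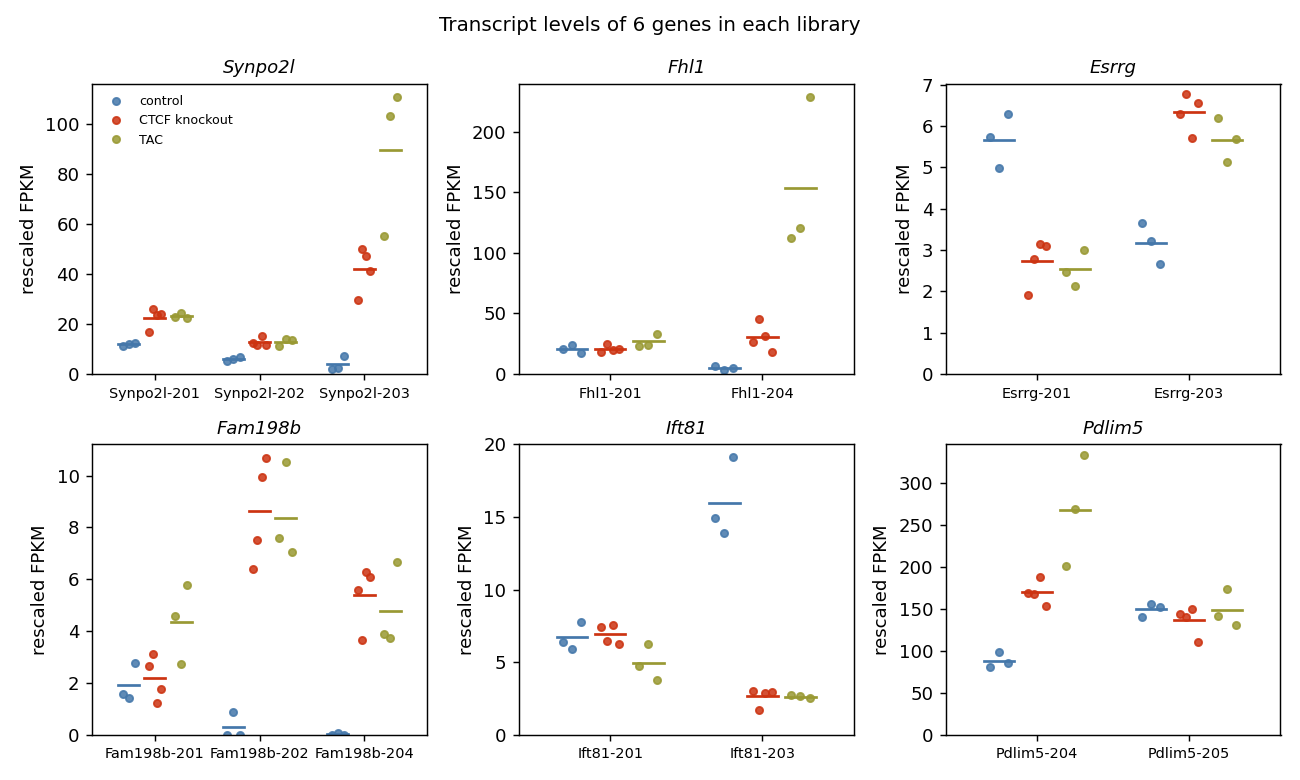
Levels of single transcripts of Synpo2l, Fhl1, Esrrg, Fam198b, Ift81 and Pdlim5 in each library, in FPKM, with 1 point per library and a bar at the group mean for control, knockout and TAC. In each gene at least 1 transcript moves while another of the same gene stays near its control level or moves less: Fhl1-204 is higher in all knockouts than in all controls while Fhl1-201 overlaps.

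A last exon here is a group of annotated transcript ends, so ends farther apart within the same exon count separately. Lnpk, which encodes an endoplasmic reticulum shaping protein, used its most distal end for 59.3, 53.9 and 74.9% of its FPKM in controls and 26.4, 21.3, 24.9 and 31.7% in knockouts (-36.6 ± 4.72 percentage points, adjusted p = 0.00349). The RNA-binding protein gene Hnrnph2 gained share at its most proximal end, from 5.78, 23.3 and 23.9% to 56.5, 47.6, 65.1 and 43.2% (35.4 ± 6.07 percentage points, adjusted p = 0.00942). Neither pair of groups overlapped. Ptpn4, a tyrosine phosphatase gene, lost share at its distal end (83.4, 79.1 and 69.5% to 40.8, 43.4, 40.4 and 56.0%), as did Ythdf3 (63.9, 63.1 and 72.8% to 36.7, 19.0, 24.9 and 45.7%). In Mbnl1, whose level was not called, the distal end fell from 48.3, 43.6 and 49.4% to 33.6, 34.5, 32.5 and 31.8% (-14.0 ± 1.68 percentage points, adjusted p = 0.00286). Smaller falls at the distal end were measured in the RNA-binding protein gene Fxr1 (22.9, 20.04 and 24.7% to 12.9, 13.9, 11 and 15.2%) and the kinesin receptor gene Ktn1 (52.4, 52.8 and 56.2% to 37.8, 35.2, 36.3 and 40.8%), again with separate groups. In Srgn, which encodes the proteoglycan serglycin, last exon 3 supplied 0.0122, 19.3 and 0.000676% in controls and 52.4, 48.6, 63.6 and 48.9% in knockouts, and control 2 stood apart from the other controls. Ppargc1a, the coactivator of mitochondrial biogenesis, whose gene level missed the threshold (-0.97 ± 0.35, adjusted p = 0.0746), gave last exon 3 23.2, 18.4 and 15.4% in controls and 32.6, 41.0, 33.9 and 32.2% in knockouts (adjusted p = 0.0189). The 4 Ppargc1a knockouts were above the 3 controls, but the call was lost without control replicate 2 or 3.

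Internal exons kept or skipped were described by the share of the gene's FPKM, among transcripts spanning the exon, that includes it. The 6 exons below are shown because their inclusion separated the groups and their lengths are multiples of 3, which keeps the reading frame. Sequences run 5′ to 3′ from GENCODE M21 transcripts (mm10), with the exon in capitals and 15 nt of the neighbouring exons in lower case.
Smtn exon of 69 nt, chr11:3520848-3520916, minus strand: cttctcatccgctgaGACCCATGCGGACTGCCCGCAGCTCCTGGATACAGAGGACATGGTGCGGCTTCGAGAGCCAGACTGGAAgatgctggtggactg
Ndrg2 exon of 42 nt, chr14:51911086-51911127, minus strand: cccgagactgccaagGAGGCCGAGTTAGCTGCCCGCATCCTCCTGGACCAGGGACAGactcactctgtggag
Sptan1 exon of 60 nt, chr2:30001100-30001159, plus strand: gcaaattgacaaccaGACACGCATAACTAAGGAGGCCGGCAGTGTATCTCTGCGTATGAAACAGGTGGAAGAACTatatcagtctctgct
Pdlim5 exon of 15 nt, chr3:142306284-142306298, minus strand: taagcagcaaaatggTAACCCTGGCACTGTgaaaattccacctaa
Postn exon of 81 nt, chr3:54380412-54380492, plus strand: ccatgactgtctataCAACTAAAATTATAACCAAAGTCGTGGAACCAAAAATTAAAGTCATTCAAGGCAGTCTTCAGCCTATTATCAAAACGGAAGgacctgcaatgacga
Tmed2 exon of 21 nt, chr5:124543487-124543507, plus strand: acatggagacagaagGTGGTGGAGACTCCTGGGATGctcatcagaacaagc
In these 6 the share of inclusion went lower in knockouts for Smtn, Ndrg2, Sptan1, Pdlim5 and Tmed2 and higher for Postn.

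The Smtn exon, from a gene for the smooth muscle cytoskeletal protein smoothelin, was included at 60.0, 65.7 and 42.4% in controls and 16.5, 9.73, 11.6 and 11% in knockouts (-43.8 ± 4.69 percentage points, adjusted p = 0.00208). Inclusion after TAC was 6.93, 0.0130 and 5.55%. Ndrg2, a stress-regulated gene of the N-myc downstream family, included its exon at 62.8, 68.8 and 65.7% in controls and 37.5, 37.4, 38.9 and 39.0% in knockouts (-27.6 ± 2.2 percentage points, adjusted p = 0.000389), while the gene's level was not called (-0.19). The 2 transcripts that differ by this exon, Ndrg2-201 with it and Ndrg2-202 without it, are both coding. In Sptan1, the alpha spectrin of the membrane skeleton, inclusion was 66.4, 63.8 and 66.8% in controls and 44.7, 47.1, 51.8 and 53.1% in knockouts (-16.5 ± 2.46 percentage points, adjusted p = 0.00687), and in Tmed2, a cargo receptor gene of the early secretory pathway, 59.3, 55.3 and 58.1% in controls and 43.4, 48.4, 47.0 and 46.1% in knockouts (-11.3 ± 1.81 percentage points, adjusted p = 0.0101). TAC inclusion was 56.6, 54.2 and 60.9% for Sptan1 and 55.7, 57.5 and 52.1% for Tmed2. The Tmed2 call was lost without control replicate 1 and in the female libraries alone.

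Pdlim5 encodes the Z-disc protein ENH, whose short forms without LIM domains are known from the adult heart. Its 15 nt exon was included at 66.5, 66.1 and 67.6% in controls and 47.0, 46.3, 45.3 and 42.3% in knockouts (-21.5 ± 2.83 percentage points, adjusted p = 0.00513), and TAC held 42.9, 41.2 and 29.0%. The share of Pdlim5-205 fell from 49.2, 44.0 and 49.9% to 33.4, 32.7, 31.7 and 30.8% and that of Pdlim5-204 rose from 28.3, 27.8 and 27.8% to 39.4, 39.0, 39.7 and 42.9%. In FPKM, Pdlim5-205 held 141, 156 and 153 in controls and 144, 141, 150.4 and 110.1 in knockouts, where the groups overlapped, and Pdlim5-204 81.1, 98.5 and 85.1 and 169, 168, 188 and 154, where they did not. Postn, the matrix protein periostin, included its 81 nt exon at 15.2, 16.1 and 28.4% in controls and 40.3, 48.4, 47.7 and 40.2% in knockouts (24.2 ± 4.0 percentage points, adjusted p = 0.0109), a call lost without control replicate 1 and in the female libraries alone. Its gene level is low in controls, and fibroblast markers, the cells known to make periostin, rose in 5 of 12 cases; their part in this share was not tested.

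Exons skipped more often in knockouts included one of 115 nt in Rap1a, a small GTPase gene (31.0, 36.9 and 32.3% in controls, 8.22, 7.83, 8.75 and 7.27% in knockouts), one of 102 nt in Fbxw11, a ubiquitin ligase adaptor (61.9, 59.8 and 69.7% and 37.4, 36.3, 31.4 and 40.8%) and one of 33 nt in Snap23, a membrane fusion protein (63.6, 56.0 and 52.7% and 29.3, 20.4, 30.4 and 29.3%). For Rap1a TAC stood between, at 21.2, 23.4 and 18.3%. An exon of 36 nt in Rc3h2, an mRNA-binding ubiquitin ligase, went from 80.8, 93.4 and 87.0% to 57.9, 62.6, 63.3 and 62.7%. Exons kept more often were those of 85 nt in Agpat3, an acyltransferase of phospholipid synthesis (32.8, 37.7 and 28.7% and 68.7, 57.4, 61.6 and 58.1%), of 53 nt in Cyfip1, an actin regulator (18.1, 18.1 and 21.1% and 45.5, 56.2, 38.0 and 46.2%), of 149 nt in Ythdf3 (18.7, 23.5 and 16.2% and 40.5, 43.2, 44.4 and 44.0%) and of 109 nt in Lmo7, a LIM-domain protein (63.6, 67.3 and 67.5% and 75.3, 76.6, 75.4 and 74.4%). None of these 8 pairs of groups overlapped, which was so for all 76 called internal exons and is no separate support. Abcc9 included its 176 nt exon at 82.0, 79.4 and 78.1% in controls and 71.4, 68.0, 61.4 and 66.3% in knockouts (-13.1 ± 2.40 percentage points, adjusted p = 0.0189), a call lost without control replicate 1 or 2 and in the female libraries alone.

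Of the genes with known heart splice forms, 31 of 292 tested transcripts were called (10.6%), 16 of 197 start sites (8.12%), 23 of 200 last exons (11.5%) and 18 of 171 internal exons (10.5%), beside 3.53%, 3.84%, 5.14% and 3% over all genes. Of all 426 called transcripts, 249 lay in genes of at least 20 FPKM on average. Rates in other genes of like level were not compared, so the part of level was not tested. The list was chosen with earlier results of these data known. A 30 nt exon of the cardiac troponin T gene Tnnt2 was included at 11.5, 9.12 and 10.2% in controls and 13.4, 14.5, 17.9 and 16.1% in knockouts (5.23 ± 1.17 percentage points, adjusted p = 0.0436). An exon of the calcium-dependent kinase gene Camk2d went from 29.0, 30.1 and 26.6% to 34.3, 35.2, 35.9 and 34.6% (6.43 ± 1.42 percentage points, adjusted p = 0.0432). Both calls were lost under most of the alternatives, that for Tnnt2 without control replicate 1, 2 or 3 or knockout replicate 2, 3 or 4 and that for Camk2d without any 1 of the 7 libraries.

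**Figure D5:**
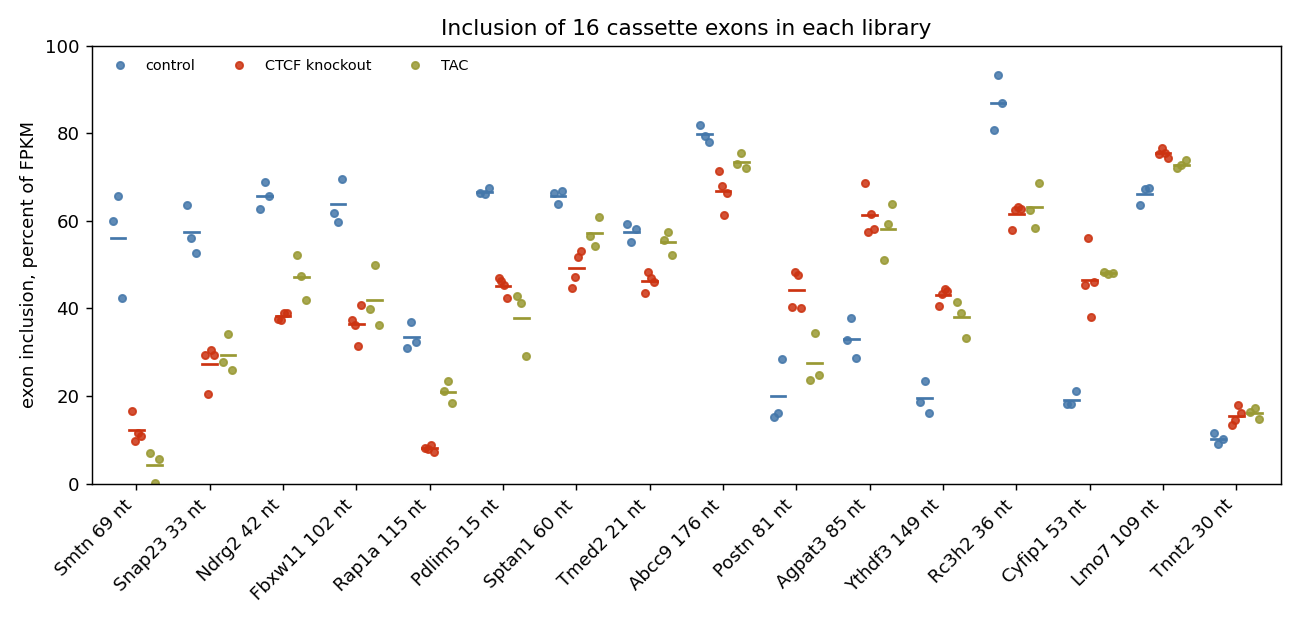
Inclusion of 16 internal exons in each library, as a percentage of the FPKM of transcripts spanning the exon, with 1 point per library for control, knockout and TAC. Knockout points lie below all control points for Smtn, Ndrg2, Rap1a, Sptan1 and the 15 nt exon of Pdlim5 and above them for Agpat3, Cyfip1, Ythdf3 and Postn, while the shift of Tnnt2 is a few points.

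The promoter windows of the RefSeq table (300 bases around the start) were searched for the letters CCANNAGNNGGC, a core of the CTCF motif, on both strands. They were found in 2.43% of 32851 promoters, in 3.47% of the 8328 tested genes with a promoter in the table, in 3.75% of 773 genes that rose and in 4.96% of 847 that fell. Sites of CTCF binding were not measured in these libraries. Some genes with a large spread between the knockout libraries were not called. The processed pseudogene Rps3a3 held 1.17, 36.3, 40.9 and 2.41 FPKM in knockouts 1 to 4 and 35.6, 2.84 and 46.2 FPKM in controls, and Gm6969 61.0, 3.53, 63.2 and 5.09 FPKM and 39.4, 5.78 and 3.45 FPKM. The Y-linked gene Eif2s3y was high in the male knockout 4 alone (0.0264, 0.0825, 0.123 and 22.9 FPKM). Gm8730 held 41.1, 3.57, 3.60 and 2.98 FPKM, with knockout 1 apart from the rest. The 3 pseudogenes can share reads with their parent genes, so their levels are uncertain.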

How the data were processed

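RNA-seq of isolated mouse cardiac myocytes was deposited as 1 table of transcript FPKM per library. Per the submitters' processing notes the authors used TopHat2 2.1.0, Bowtie2, Cufflinks 2.2.1 and Cuffdiff on mm10, and the deposited FPKM values are fragments normalised to transcript length and library; the options are not given in the sources used here. The authors' files also give each transcript a Cufflinks score, which was not analysed, and a coverage value, which served only as a stand-in for depth. They hold no read counts, so the depth is unknown. The molecule label names polyA RNA, whereas the labels' protocols describe rRNA removal and a stranded kit.

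Transcripts (109869) were matched to GENCODE M21 names (2063 were not in it; 844 of 45882 gene IDs had no symbol). Transcripts' FPKM were summed by gene. Genes under 300 nt (7765) were set apart. So were 22 listed at 0 in at least 1 library whose median over the libraries above 0 was at least 100 FPKM. Of the 38095 kept, 11339 with a mean of at least 1 FPKM were tested. Each library was divided by its median ratio to the geometric mean library. Levels were tested as log2(FPKM + 1) with limma 3.58.1 (R 4.3.3; eBayes with a trend), all 10 libraries sharing the spread, and p-values were adjusted by the Benjamini-Hochberg method over all tested features. Shares were tested in percent with the same fit in genes of at least 5 FPKM on average and 1 FPKM in each library, for features with a mean share of 5 to 95%. Starts and ends within 100 nt were joined. Inclusion of an internal exon is the percent of FPKM in transcripts with that exon, over these and the transcripts that join its neighbours directly. Figures and tables used Python 3.11.15, pandas 2.3.3, numpy 2.4.6 and matplotlib 3.10.9.

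On simulated data for the knockout comparison, 86% of 200 genes changed by 1 on the log2 scale and 99.5% changed by 2 were recovered among 11339; among 12061 transcript shares, 7.5% of changes of 10 points, 66% of 20 and 90.5% of 30. Named genes were Ctcf, the 25 highest and 25 lowest log2 differences among called genes whose groups do not overlap, the largest changes in mean FPKM, genes near 0 in 1 group only, the leading called members of each of 40 lists (1289 entries, 975 tested) and the largest knockout spread; named shares were the largest called changes of each kind and all called ones in genes with known heart splice forms. Further list members, such as Rbfox2, S100a1 and the cohesin genes, were named after their values were seen. Results of 1 list and of some genes are not reported here. The members and lists were chosen with earlier results of these data known. Whether the animals were processed on separate days is not stated, so p-values measure the spread between these libraries. Alternatives varied the pseudocount, filter, scaling, libraries, replicate block, sex as a covariate, robust eBayes and share scale. The 1 that kept only transcripts of at least 300 nt was chosen after seeing the data.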

Additional observations from a re-analysis of the deposited data

Results flagged for a closer look

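Among the 4 knockout libraries, 23 of 325 checked values had 1 library far from the other 3, by Dixon's gap ratio at the 95% level. Chance alone gives about 5 in 100 for independent values, but these were not independent. Some genes, Eif2s3y and Gm8730 among them, were named for their spread among the knockouts, and Rreb1-201 and its promoter hold the same values. The count is therefore no test against that rate. Knockout replicate 4, the male knockout, was the far library in 11 of them. It was highest for the cell cycle genes Ube2c (11.3 FPKM, others 2.97 to 3.52), Cdk1 (10.1 FPKM, others 2.39 to 3.41) and Rrm2 (10.5 FPKM, others 2.21 to 2.98). It was also highest for the stress hormone Gdf15 (11.5 FPKM, others 5.88 to 6.68), the complement gene C4b (5.08 FPKM, others 2.59 to 2.99), the Y-linked Eif2s3y (22.9 FPKM, others 0.0264 to 0.123) and Alb (0.0210 FPKM, others listed at 0). The share of Rreb1-201, which is also Rreb1 promoter 8, was 10.9% there and 0.0550 to 0.604% in the others. Limch1-202 held 22.9% there (others 27.5 to 28.2%) and Ktn1 last exon 6 held 55.7% (others 60.6 to 60.8%).

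Knockout replicate 2 was far from the rest for Nrg1 (3.06 FPKM, others 1.51 to 1.77), Grk5 (13.1 FPKM, others 10.6 to 10.98), Gm10801 (1.51 FPKM, others 1.25 to 1.29) and, as the lowest, Tfpi (8.80 FPKM, others 10.9 to 11.1). Its shares were lowest for Cyfip1 last exon 8 (11.4%, others 37.3 to 40.4%) and the Snap23 exon (20.4%, others 29.3 to 30.4%). Knockout replicate 1 was lowest for Yap1 (22.1 FPKM, others 23.3 to 23.5), Tbx5 (4.91 FPKM, others 5.04 to 5.05) and the Rc3h2 exon (57.9%, others 62.6 to 63.3%), and highest for the pseudogene Gm8730 (41.1 FPKM, others 2.98 to 3.60). Knockout replicate 3 was highest for Ankrd1 (3084 FPKM, others 2644 to 2719) and Satb1 (8.16 FPKM, others 6.70 to 6.94).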

How the results depend on the processing

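Every called gene kept its direction in each alternative fit that tested it. The filter at 5 FPKM tested 1279 of the 2219, and the other fits tested all. Genes whose groups do not overlap cannot change direction when a library is left out, so this is little support. From 46.0% (female libraries only) to 98.7% (pseudocount 0.1) of those tested were called again. Ctcf stayed called and lower throughout, by -0.91 to -1.21 on the log2 scale. The 2219 calls became 1276 with a filter at 5 FPKM, where fewer genes were tested (538 higher, 738 lower), and 1088 in the female libraries, with fewer samples (608 higher, 480 lower). No rescaling gave 1657 higher and 608 lower. With sex as a covariate 2051 genes were called, and 90.9% of the main calls were called again. Leaving out 1 library gave 1593 to 1855 calls, with 812 to 941 higher and 757 to 1033 lower.

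Transcript shares fared worse. The 426 transcript, 470 last exon, 294 start site and 76 internal exon calls became 167 to 406, 197 to 454, 101 to 233 and 30 to 69 when 1 library was left out. In the female libraries they became 154, 241, 96 and 25, with fewer samples. With sex as a covariate they became 365, 412, 242 and 52. As a log2 ratio to the rest of the gene 212, 237 and 147 of the first 3 kinds were called, and with the 7 libraries alone 49 internal exons. The cause was not tested. Of 136 named shares, 47 kept their call under all alternatives.

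Replicate numbers did not pair the libraries: deviations of control and knockout libraries of the same number correlated at -0.31, -0.13 and 0.14. With the replicate number as a block, 1738 genes, 175 transcripts, 337 last exons, 113 start sites and 29 internal exons were called. Neither Eif2s3y, at -1.77 to 0.93 when 1 library was left out (above 0 without control replicate 2), nor Gm8730, at -0.11 (without knockout replicate 1) to 1.02, was called. Without read counts, no limit from depth could be set; in simulation, share changes of 10 points were mostly missed.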
